A study of Arabidopsis thaliana with 42 samples.

Results

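The genes described here are the transporters and channels that move Ca2+ in and out of the cytosol of Arabidopsis thaliana leaf cells and that have a place in defence: the vacuolar exchangers CAX1 and CAX3, the autoinhibited P-type pumps ACA8, ACA10, ACA12 and ACA13, and the cyclic nucleotide-gated channels CNGC2, CNGC4, CNGC19 and CNGC20. They were taken by locus name, and all 10 were found among the 24843 loci of the count table and passed the filter on low counts (15161 genes tested). Leaves of 7 genotypes received Pma or mock treatment, and 3 independent experiments gave 1 library of each of the 14 groups, 42 libraries in all. The Pma groups received Pseudomonas syringae pv. maculicola ES4326, a virulent leaf pathogen, at an optical density of 0.0002 in 5 mM magnesium sulfate, and the mock groups received that solution alone. The mutants were cbp60a, chp60g sard1 (the label's spelling, read here as cbp60g sard1), the triple mutant cbp60a cbp60g sard1, cml46 cml47, wrky70 and sid2, and the wild type was Col-0, the ecotype given for all samples. All plants were 30 days old and grown at 22 °C, and a sample was 2 leaves taken 24 h after treatment. The mutant alleles are not given in the sources used here, and whole leaves mix cell types. CBP60A, CBP60G and SARD1 belong to a family of calmodulin-binding proteins, CML46 and CML47 are calmodulin-like proteins, WRKY70 is a transcription factor of salicylic acid responses, and SID2 is the locus of ICS1, which makes the salicylic acid precursor isochorismate.

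A rise of cytosolic Ca2+ is among the first events after a plant cell perceives a microbe. Channels of the CNGC family let Ca2+ in across the plasma membrane, whereas ACA pumps, which spend ATP and are released from autoinhibition by calmodulin, and CAX exchangers, which use the proton gradient of the vacuole, take it out of the cytosol again. Calmodulin and calmodulin-like proteins bind the ion and pass the signal on.

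Libraries held 919335 to 2691069 counts (median 1588053.5). Levels are given as CPM, counts scaled by library size after TMM normalization. Changes are log2 fold changes ± SE from 1 edgeR quasi-likelihood fit of all 42 libraries with the experiment as a block, and a change was called at a Benjamini-Hochberg adjusted p under 0.05 over all 15161 genes. The transcripts of ICS1 in sid2 (1.94 ± 1.13 CPM, against 542 ± 203 in wild type, Pma leaves), of CML46 in cml46 cml47 (0.473 ± 0.427 against 335 ± 137), of WRKY70 in wrky70 (153 ± 63.0 against 1823 ± 166), and of SARD1 in chp60g sard1 (10.9 ± 9.13 against 250 ± 30.8) and the triple mutant (11.4 ± 6.00) were lower than in wild type (SD, n = 3 each). CBP60G in Pma leaves was at 39.3 ± 11.3 CPM in chp60g sard1 and 28.3 ± 14.1 in the triple mutant, against 255 ± 18.1 in wild type. In mock leaves of these mutants it averaged 7.89 and 5.84 CPM. CBP60A in cbp60a (20.1 ± 4.22 against 46.2 ± 14.1 CPM, adjusted p = 0.192) and CML47 in cml46 cml47 (229 ± 55.3 against 682 ± 112 CPM, adjusted p = 0.173), both in Pma leaves, did not pass the test. Summed mesophyll markers (4 genes) were at 1638 to 22850 CPM over the 21 Pma libraries and at 36170 to 57660 over the 21 mock libraries, and epidermis markers (5 genes) at 20.1 to 507 against 1051 to 2465. Guard cell markers (5 genes) were at 61.3 to 157 CPM in Pma and 35.04 to 86.1 in mock leaves. That sum did not hold for each of its genes. Of the 5, HT1 and SLAC1 did not pass the filter on low counts. Of the 3 tested, 1 was called higher and 1 lower with Pma in wild type. MYB60 had 2 counts in wild type Pma leaves against 28 in mock leaves, and 2 against 25 in wrky70. Phloem markers (4 genes) were at 179 to 418 CPM in Pma leaves against 327 to 538 in mock leaves, and no marker was at 0 in any group. The part of these marker shifts in the results below was not tested, and in whole leaves fewer cells of a type and less RNA per cell cannot be told apart.

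The 10 genes lie on all chromosomes but 1. In TAIR10.1, CAX1 (AT2G38170) lies at chr2:15989083-15993326 on the minus strand and CAX3 (AT3G51860) at chr3:19239305-19242913 on the plus strand. ACA8 (AT5G57110) lies at chr5:23109438-23117686 and ACA10 (AT4G29900) at chr4:14610883-14619685, both on the minus strand and both with 35 exons in the longest transcript. ACA12 (AT3G63380, chr3:23406484-23410360) and ACA13 (AT3G22910, chr3:8116292-8119490), also on the minus strand, have 1 exon each. CNGC2 (AT5G15410, chr5:5003226-5006882) and CNGC4 (AT5G54250, chr5:22025035-22030099) lie on the minus strand, while CNGC19 (AT3G17690, chr3:6045002-6048529) and CNGC20 (AT3G17700, chr3:6048814-6052675) stand in tandem on the plus strand, 284 bases apart. Counts came from 3' tags, so shared sequence at transcript ends matters for their assignment. Over the last 500 bases of the transcripts the longest identical run was 26 bases between CNGC19 and CNGC20, 13 between ACA8 and ACA10 and 11 between CAX1 and CAX3. The 3' end of CNGC2 overlaps the start of AT5G15400 on the same strand by 28 bases, and that of ACA10 overlaps AT4G29890 on the other strand by 116 bases. How such tags were counted is not given in the sources used here.

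The bases before the start of the genes with the sharpest contrast are shown first: CAX3 beside its close relative CAX1, which moved in the other direction in wild type, and the single-exon pumps ACA12 and ACA13, which rose together. Each line is the 250 bases directly before the annotated start, on the gene's own strand, from the RefSeq TAIR10.1 genome (chr3:19239055-19239304 for CAX3, chr2:15993327-15993576 for CAX1, chr3:23410361-23410610 for ACA12 and chr3:8119491-8119740 for ACA13). Capitals mark matches on either strand to TTGAC (the core of the W box that WRKY factors bind), TGACG (the core bound by TGA factors), GAAATTT (letters within the element that CBP60g and SARD1 bind) or CGCG (the core bound by calmodulin-binding CAMTA factors).
CAX3: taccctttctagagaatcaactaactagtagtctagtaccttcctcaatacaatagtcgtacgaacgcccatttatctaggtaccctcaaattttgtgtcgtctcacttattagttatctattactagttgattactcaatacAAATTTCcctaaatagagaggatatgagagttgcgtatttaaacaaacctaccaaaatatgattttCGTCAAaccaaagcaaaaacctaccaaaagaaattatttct
CAX1: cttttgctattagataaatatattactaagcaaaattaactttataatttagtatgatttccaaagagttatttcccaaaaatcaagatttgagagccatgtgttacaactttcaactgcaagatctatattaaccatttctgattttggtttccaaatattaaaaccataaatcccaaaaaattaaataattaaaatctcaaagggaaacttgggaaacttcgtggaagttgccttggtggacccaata
ACA12: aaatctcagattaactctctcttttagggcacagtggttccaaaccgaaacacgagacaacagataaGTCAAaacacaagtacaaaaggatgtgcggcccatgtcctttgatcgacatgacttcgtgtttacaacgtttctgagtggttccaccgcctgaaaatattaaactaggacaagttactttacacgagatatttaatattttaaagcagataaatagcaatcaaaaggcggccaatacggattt
ACA13: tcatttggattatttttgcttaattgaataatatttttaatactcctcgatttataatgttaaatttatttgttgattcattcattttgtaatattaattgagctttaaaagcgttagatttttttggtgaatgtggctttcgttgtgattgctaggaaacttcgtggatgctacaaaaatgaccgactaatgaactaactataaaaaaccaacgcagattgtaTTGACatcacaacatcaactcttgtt
The capitals near the 3' end of the CAX3 line hold TTGAC and TGACG, both on the minus strand and overlapping by 4 bases (positions 40 to 36 and 41 to 37 before the start), and the capitals further upstream hold GAAATTT on the minus strand (107 to 101). ACA12 held 1 TTGAC on the minus strand (183 to 179), ACA13 held 1 on the plus strand (26 to 22), and CAX1 held none of the searched letters. In the other members, CNGC2 held 2 copies of TTGAC, ACA8 held 2 of GAAATTT and CNGC19 held 1 CGCG, while ACA10, CNGC4 and CNGC20 held none. Among 15075 windows of the same length before tested genes, 45.2% held TTGAC, 19.8% TGACG, 13.0% GAAATTT and 10.9% CGCG, so TTGAC in 4 of the 10 members lay near its share of all windows.

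What Pma does to these genes in wild type leaves was the first comparison. Of the 10 genes, 6 rose (32.3% of all tested genes were called higher) and 3 fell (34.0% called lower), and 1, CNGC4, did not pass. The rises were large in CAX3, ACA12, ACA13 and CNGC19, which were close to absent from mock leaves, and smaller in ACA10 and CNGC20. The falls were in CNGC2, CAX1 and ACA8. The median log2 fold change of the 10 was 2.23, beside -0.02 over all tested genes.

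**Figure D1:**
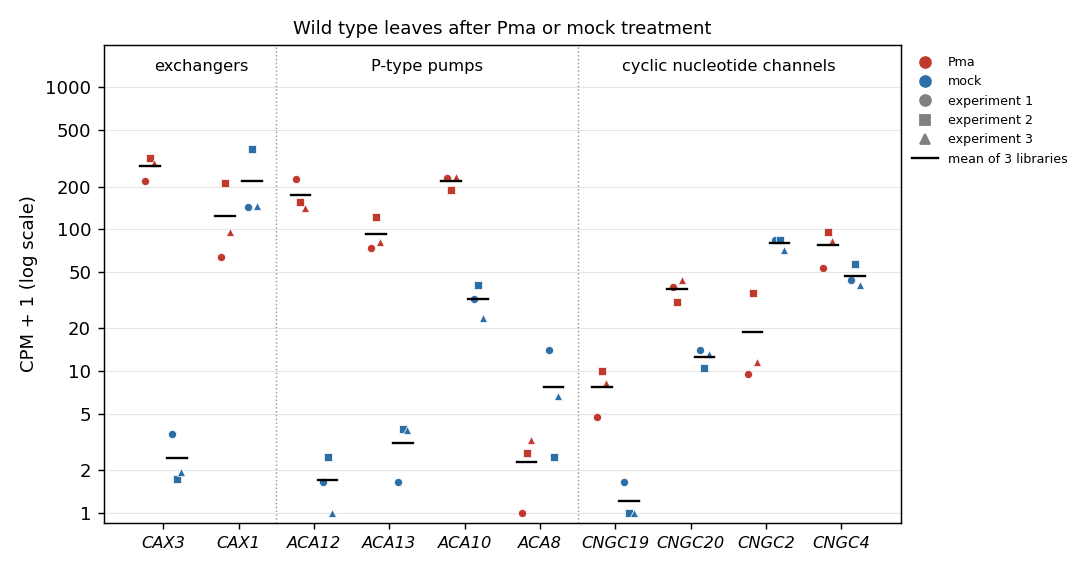
Levels of the 10 genes in wild type leaves, as CPM + 1 on a log axis, with Pma (red) left of mock (blue), 1 point per library, marker shape for the experiment and a bar at the mean of 3 libraries. CAX3, ACA12, ACA13, ACA10, CNGC19 and CNGC20 stand higher in every Pma library than in every mock library, CNGC2 stands lower, and the groups overlap for CAX1, ACA8 and CNGC4.

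Among the exchangers, CAX3, which loads the vacuole and acts partly through pairing with CAX1, was at 219, 319 and 293 CPM in the Pma libraries of experiments 1 to 3, against 2.61, 0.731 and 0.940 CPM in mock. All Pma libraries lay far above all mock libraries, and the change was 7.46 ± 0.83 (adjusted p = 1.55e-09), resting on 6 counts in the 3 mock libraries together. CAX1, the main Ca2+/H+ exchanger of the leaf vacuole, was at 62.9, 210 and 94.2 CPM in Pma leaves, against 142, 369 and 145 in mock leaves. It was lower in each of the 3 experiments, and the groups overlap, with experiment 2 high under both treatments (-0.87 ± 0.30, adjusted p = 0.0131). That call ended without the experiment block (adjusted p = 0.169), without experiment 3 (0.0632), and without the wild type Pma library of experiment 1 (0.0729) or the mock library of experiment 1 (0.0755) or 2 (0.164).

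Among the pumps, ACA12, a plasma membrane Ca2+-ATPase, had 857 counts over the 3 Pma libraries and 3 over the 3 mock libraries. Per library this was 225, 154 and 140 CPM in Pma leaves, against 0.653, 1.46 and 0 CPM in mock leaves, a ratio of 233 (95% interval of counting error 79.3 to 1130; adjusted p = 1.96e-12). ACA13, known for exporting Ca2+ from stigma papilla cells during pollination, was at 73.1, 122 and 80.2 CPM in Pma leaves, against 0.653, 2.93 and 2.82 CPM in mock leaves, and its change was 5.47 ± 0.74 (adjusted p = 8.01e-08). Both genes were thus near the limit of detection in mock leaves and separated the treatments completely. ACA10, a calmodulin-regulated plasma membrane pump that acts with ACA8 in immune Ca2+ signals, was at 230, 189 and 233 CPM in Pma leaves, against 31.3, 39.5 and 22.6 CPM in mock leaves (2.8 ± 0.27, adjusted p = 1.77e-10). AT4G29890, which overlaps its 3' end, averaged less in Pma leaves (5.41 ± 2.05 CPM in Pma, 11.2 ± 3.16 CPM in mock; SD, n = 3 each). ACA8, which associates with the flagellin receptor FLS2, was at 0, 1.64 and 2.24 CPM in Pma leaves, against 13.1, 1.46 and 5.64 CPM in mock leaves. The groups overlap, 1 of 3 experiments went up, and the call (-2.17 ± 0.96, adjusted p = 0.0451) ended in 24 of the alternatives. Its adjusted p was 0.872 without the wild type Pma library of experiment 1, 0.0548, 0.0662 and 0.174 without the wild type mock library of experiment 1, 2 or 3, 0.0748 without experiment 2, 0.202 without the block, 0.126 with DESeq2, and 0.0515 to 0.0660 without 1 of 17 libraries of the mutants.

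Among the channels, CNGC19, which carries Ca2+ signals after herbivore attack and damage peptides, was at 3.76, 9.0 and 7.29 CPM in Pma leaves, against 0.653, 0 and 0 CPM in mock leaves. That is 31 counts against 1, a ratio of 25.2 (4.21 to 1030, adjusted p = 0.000116). Its tandem neighbour CNGC20, which acts with it in the cell death of plants lacking the co-receptor BAK1, was at 38.2, 29.5 and 42.6 CPM in Pma leaves, against 13.1, 9.51 and 12.2 CPM in mock leaves (1.66 ± 0.30, adjusted p = 1.32e-05). Both genes of the tandem thus rose. CNGC2, the channel lost in the mutant defense, no death 1, was at 8.60, 34.4 and 10.7 CPM in Pma leaves, against 83.5, 83.4 and 70.5 CPM in mock leaves, and fell by 2.27 on the log2 scale (SE 0.45, adjusted p = 4.82e-05). AT5G15400, whose start overlaps the end of CNGC2, averaged more in Pma leaves (63.2 ± 2.77 CPM against 27.7 ± 0.405 in mock leaves; SD, n = 3 each). CNGC4, which forms a channel with CNGC2 in pattern-triggered immunity, was at 52.7, 94.1 and 81.9 CPM in Pma leaves, against 43.1, 55.6 and 39.5 CPM in mock leaves. It was higher in all 3 experiments at 0.67 ± 0.31 but missed the threshold (adjusted p = 0.0536), and it passed in 24 of the alternatives, with an adjusted p of 0.0101 without experiment 1 and 0.0422 without the filter on low counts. Most of these 24 left out 1 mock library of a mutant, such as sid2 mock 3 (0.84, adjusted p = 0.0170), and they are not separate tests. The values of the partners CNGC2 and CNGC4 thus had opposite signs, with a call for CNGC2 alone.

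The same comparison was made in the 6 mutants. Of the 10 genes, 9 were called in sid2 (62.6% of all tested genes), 9 in cbp60a (63.2%), 8 in wrky70 (60.7%), 7 in cml46 cml47 (57.1%), 7 in the triple mutant (58.3%) and 6 in chp60g sard1 (57.4%), beside 9 in wild type (66.3%). Over the 7 genotypes this makes 55 of 70 values called, against 60.8% of the values of all genes. Of the 70 values 44 were rises (29.3% over all genes) and 11 were falls (31.5%). ACA12, ACA13, ACA10 and CNGC19 rose in every genotype. CAX3 rose in 6 of 7, CNGC20 in 5 and CNGC4 in 4, CNGC2 fell in 6, and CAX1 fell in 4 and rose in 1. ACA8 passed in wild type alone.

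**Figure D2:**
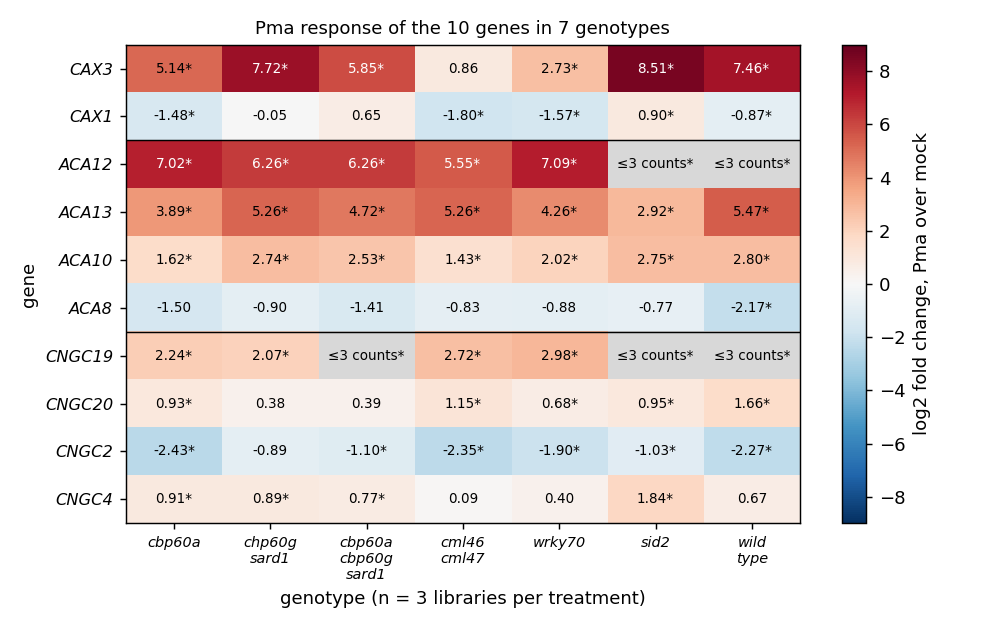
Log2 fold change of Pma over mock for the 10 genes (rows, by family) in the 6 mutants and wild type (columns), from red (higher in Pma) to blue (lower). An asterisk marks a call, and grey cells are values where 1 group held 3 counts or fewer, for which a ratio is given in the text. CAX3 is weak in cml46 cml47 (0.86), and CAX1 is blue in 4 genotypes and red in sid2 (0.90).

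The sizes differed between genotypes for some members more than for others. ACA10 rose by 1.43 to 2.8 and ACA13 by 2.92 (sid2) to 5.47 (wild type). For ACA12 the fitted changes were 5.55 to 7.09 in the 5 mutants with more than 3 mock counts, and its ratio in sid2 was 653 (117 to 25800, 750 counts in Pma leaves against 1 in mock leaves). CNGC19 rose by 2.07 to 2.98 in cbp60a, chp60g sard1, cml46 cml47 and wrky70, with a ratio of 11.5 (2.9 to 99.3) in the triple mutant and of 148 (26.2 to 5880) in sid2. CNGC2 changed by -2.43 in cbp60a, -2.35 in cml46 cml47, -1.90 in wrky70, -1.10 in the triple mutant, -1.03 in sid2 and -0.89 in chp60g sard1 (adjusted p = 0.0732, not called). The test of the difference from wild type called none of the 6 CNGC2 responses, with the lowest adjusted p at 0.168 in chp60g sard1. The CNGC2 calls in the triple mutant and sid2 ended in 16 and 8 of the alternatives, with an adjusted p of 0.206 without the triple mutant Pma library of experiment 1, of 0.0617 to 0.129 without 1 of its mock libraries, and of 0.113, 0.0852, 0.147 and 0.0908 without the sid2 library Pma 1, Pma 3, mock 1 or mock 3. CNGC4 rose in sid2 by 1.84 ± 0.31 (adjusted p = 6.32e-06), in cbp60a by 0.91 ± 0.31, in chp60g sard1 by 0.89 ± 0.31 and in the triple mutant by 0.77 ± 0.31, while in cml46 cml47 it was at 0.09 ± 0.31 (adjusted p = 0.832). Without their own Pma library of experiment 3 the CNGC4 values were 0.56 (adjusted p = 0.155) in chp60g sard1 and 0.39 (0.310) in the triple mutant. The triple mutant call also ended without its library Pma 2 (0.0866) or mock 3 (0.0749), and that of cbp60a without experiment 2 (0.0914) or 3 (0.0594). Those of chp60g sard1 and the triple mutant ended without experiment 2 (0.0643 and 0.215) or 3 (0.358 and 0.529). Without the block the CNGC4 calls in cbp60a (0.0527), chp60g sard1 (0.0552) and the triple mutant (0.0646) ended too. CNGC20 was at 0.38 ± 0.28 in chp60g sard1 and 0.39 ± 0.29 in the triple mutant, with adjusted p of 0.258 and 0.259, against 1.66 ± 0.30 in wild type. Its rises in cbp60a (0.93 ± 0.29), cml46 cml47 (1.15 ± 0.28), sid2 (0.95 ± 0.31) and wrky70 (0.68 ± 0.30, adjusted p = 0.0460) were smaller by value. The wrky70 call ended in 9 alternatives: with RLE factors (0.0623), with DESeq2 (0.0722), without the block (0.0522), without experiment 2 (0.185) or 3 (0.230), and without the library Pma 2 (0.121), Pma 3 (0.142), mock 1 (0.0733) or mock 3 (0.108) of that mutant. Those of cml46 cml47 and sid2 ended without experiment 2 (0.0582 and 0.0918), that of sid2 also without experiment 3 (0.136), and that of cbp60a without experiment 3 (0.225) or its library Pma 3 (0.0558). Among the other rises, that of ACA13 in sid2 ended without experiment 2 (0.154) or the sid2 mock library of experiment 2 (0.0620). The rise of CNGC19 in chp60g sard1 ended without experiment 2 (0.201) or 3 (0.0580) or its Pma library of experiment 2 (0.0755). In the triple mutant it ended without experiment 3 (0.175) or the Pma library of experiment 3 (0.0539), and in cbp60a without experiment 3 (0.125).

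ACA8 varied with the experiment in mock leaves of all genotypes and in Pma leaves of some. In the 7 mock libraries of experiment 1 it was at 13.1 to 28.4 CPM (median 18.4), while the mock libraries of experiment 2 were at 0.619 to 2.92 and those of experiment 3 at 0 to 5.64 CPM. In Pma leaves the 7 libraries of experiment 1 were at 0 to 15.7 CPM (median 7.91), those of experiment 2 at 0 to 2.49 and those of experiment 3 at 0.559 to 2.24 CPM. The mock libraries of experiment 1 thus lay above all mock libraries of the other experiments, and its response in the 6 mutants lay between -1.50 and -0.77 without passing the test.

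In mock leaves the mutants differed from wild type in 3 of 60 values, all rises, against 0.994% of the values of all genes (0.755% higher and 0.239% lower). CAX3 was the gene concerned in cml46 cml47 and wrky70, and ACA10 in cml46 cml47. CAX3 was at 39.8, 297 and 125 CPM in cml46 cml47 mock leaves, against 2.61, 0.731 and 0.940 CPM in wild type mock leaves. All libraries of the mutant lay above all libraries of wild type, by 6.46 ± 0.83 (adjusted p = 4.47e-05), and the library of experiment 2 lay within the range of the wild type Pma libraries. In wrky70 mock leaves CAX3 was at 63.0, 7.30 and 65.3 CPM, also above every wild type mock library (5.03 ± 0.84, adjusted p = 0.0102). This call ended without the wrky70 library of experiment 1 (adjusted p = 0.151), without the wild type library of experiment 1 (0.0578), 2 (0.101) or 3 (0.114), and without experiment 2 (0.0528) or 3 (0.731). ACA10 was at 71.4, 56.3 and 75.2 CPM in cml46 cml47 mock leaves, against 31.3, 39.5 and 22.6 CPM in wild type (1.12 ± 0.26, adjusted p = 0.00747). The groups do not overlap, and the call ended without experiment 1 (adjusted p = 0.0788) or 3 (0.195) and without the library of experiment 3 of the mutant (0.0685) or of wild type (0.0734). The marker sums of cml46 cml47 mock leaves lay below wild type mock leaves for mesophyll (37870 to 40040 against 51930 to 57660 CPM), epidermis (1051 to 1228 against 1679 to 1787) and guard cells (35.2 to 50.7 against 56.4 to 74.6), without overlap, and phloem sums overlapped (340 to 389 against 352 to 481). Their part in the cml46 cml47 results was not tested.

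The 2 members called in cml46 cml47 compare with 5.24% of all genes (3.83% higher and 1.41% lower) and the 1 in wrky70 with 0.0594%. In cml46 cml47 mock leaves CAX1 was at 349, 410 and 370 CPM, against 142, 369 and 145 CPM in wild type, and did not pass (0.96 ± 0.30, adjusted p = 0.0579), but did in 13 of the alternatives. ACA12 was at 5.1, 3.09 and 3.63 CPM there, against 0.653, 1.46 and 0 CPM in wild type, a ratio of 5.22 (1.59 to 27.0, counting error only, 25 counts against 3), also not called. In the other mutants the edgeR fit of all 42 libraries called no member in mock leaves. In cbp60a (0.185% of all genes called) 3 of the 10 were under an unadjusted p of 0.05 and DESeq2 called 1, and in the triple mutant (0.0%) the numbers were again 3 and 1, CAX1 (adjusted p = 0.0493 with DESeq2). CAX1 was at 64.0, 112 and 87.8 CPM in triple mutant mock leaves, below every wild type mock library (-1.22, adjusted p = 0.185). The edgeR fit of the mock libraries alone passed CAX1 there (-1.24, adjusted p = 0.0152), in wrky70 (0.78, 0.0405) and in cml46 cml47 (0.94, 0.00158). In chp60g sard1 (0.462%) 1 was under 0.05 and DESeq2 called 0, and in sid2 (0.0132%) both numbers were 0. Among these uncalled values, ACA10 in cbp60a was at 70.7, 84.6 and 34.5 CPM (1.02 ± 0.26, adjusted p = 0.0682; 0.0186 with DESeq2), and CNGC20 in chp60g sard1 was at 25.1, 19.8 and 24.6 CPM, against 13.1, 9.51 and 12.2 CPM in wild type (0.99 ± 0.31, adjusted p = 0.187).

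**Figure D3:**
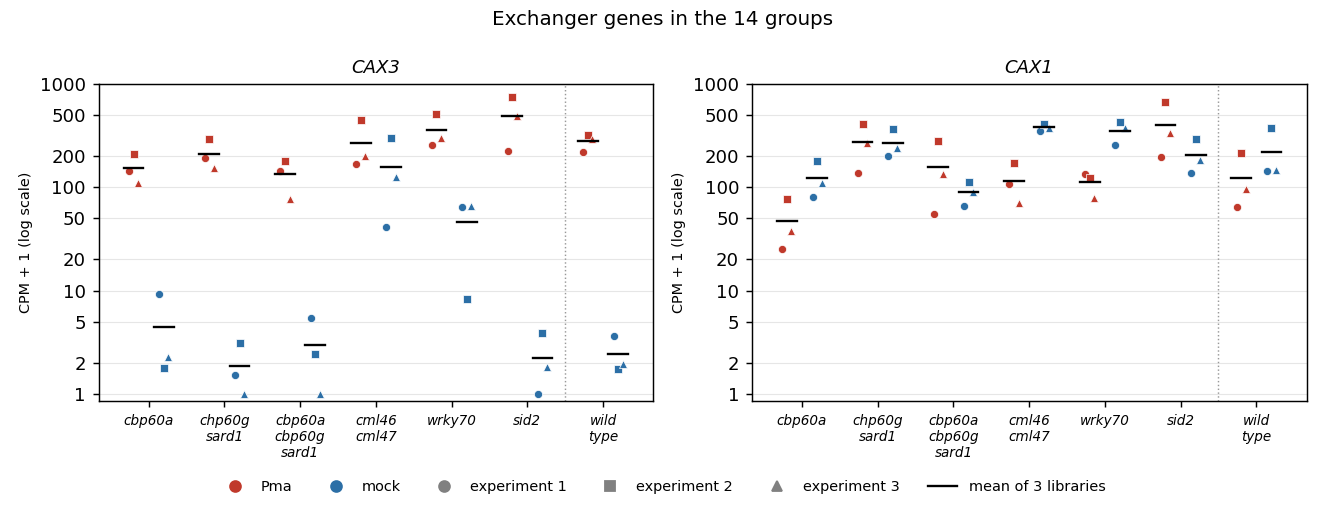
CAX3 (left panel) and CAX1 (right panel) in the 6 mutants and, right of the dotted line, wild type, as CPM + 1 on a log axis, with Pma (red) left of mock (blue), 1 point per library, marker shape for the experiment and a bar at the mean. CAX3 in mock leaves reaches 297 CPM in cml46 cml47 and 65.3 in wrky70 and stays at or under 8.24 in the other genotypes, while CAX1 in Pma leaves is highest in sid2 (up to 668 CPM).

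In Pma leaves the mutants differed from wild type in 7 of 60 values, 5 rises and 2 falls, against 6.86% of the values of all genes (4.44% higher and 2.42% lower). Of these, 5 belong to sid2 (14.5% of all genes, 8.89% higher and 5.62% lower), 1 to chp60g sard1 (13.1%) and 1 to wrky70 (3.31%). In sid2 the fall of ACA13 and the rise of CNGC19 were the largest, followed by rises of CAX1, CNGC2 and CNGC4. ACA13 was at 4.29, 22.1 and 6.96 CPM in sid2 Pma leaves, against 73.1, 122 and 80.2 CPM in wild type Pma leaves. The groups are far apart in every experiment (-3.17 ± 0.59, adjusted p = 0.000463), and this call held in all alternatives run. In wrky70 Pma leaves ACA13 was at 7.77, 42.7 and 20.9 CPM, again below every wild type library (-2.07 ± 0.55, adjusted p = 0.0275). The wrky70 call ended without the block (adjusted p = 0.152), without any 1 experiment (0.105 to 0.129), without wild type library 1 (0.0599), 2 (0.0673) or 3 (0.0895) and without the wrky70 library of experiment 1 (0.116).

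CNGC19 was at 41.4, 28.8 and 39.1 CPM in sid2 Pma leaves, against 3.76, 9.0 and 7.29 CPM in wild type Pma leaves. Every sid2 library lay above every other Pma library of the series, and the change against wild type was 2.52 ± 0.47 (adjusted p = 0.000311), a call that held in all alternatives run. Its neighbour CNGC20 did not share this: it was at 18.6, 21.4 and 25.2 CPM in sid2 Pma leaves, against 38.2, 29.5 and 42.6 CPM in wild type (-0.75 ± 0.28, adjusted p = 0.0675, not called), a value that passed in 6 of the alternatives, among them DESeq2 (0.0491) and the fit of the Pma libraries alone (0.0237). CNGC2 was at 36.4, 73.0 and 40.7 CPM in sid2 Pma leaves, against 8.60, 34.4 and 10.7 CPM in wild type, without overlap (1.56 ± 0.45, adjusted p = 0.0163). In chp60g sard1 Pma leaves CNGC2 was at 18.1, 40.6 and 59.2 CPM, higher than wild type in 3 of 3 experiments and not called (1.28 ± 0.45, adjusted p = 0.0566), though it passed in 9 of the alternatives, DESeq2 among them (0.0431). In the triple mutant it was at 13.1, 52.3 and 40.98 CPM, again higher in 3 of 3 (1.05 ± 0.45, adjusted p = 0.145), and passed in 3. CNGC4 was at 86.5, 237 and 134 CPM in sid2 Pma leaves, against 52.7, 94.1 and 81.9 CPM in wild type, higher in each experiment with overlapping groups (0.96 ± 0.30, adjusted p = 0.0275). The CNGC2 and CNGC4 calls in sid2 both ended without the block (adjusted p = 0.0513 for CNGC2 and 0.125 for CNGC4), without experiment 2 (0.0867 and 0.395) or 3 (0.144 and 0.103), without the sid2 library of experiment 2 (0.0839 and 0.214), and without wild type Pma library 1 (0.109 and 0.0931) or 3 (0.0910 and 0.0819). That of CNGC4 also ended without wild type Pma library 2 (0.0677), and that of CNGC2 in a fit of the Pma libraries alone (0.0555).

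CAX1 was at 195, 668 and 334 CPM in sid2 Pma leaves, against 62.9, 210 and 94.2 CPM in wild type Pma leaves. It was higher in each experiment, and the groups overlap only across experiments (1.71 ± 0.31, adjusted p = 0.000368). In chp60g sard1 Pma leaves it was at 136, 407 and 268 CPM (1.19 ± 0.31, adjusted p = 0.00787), a call that ended without the block (0.209), without experiment 3 (0.251), without the chp60g sard1 library of experiment 3 (0.0657) or without wild type Pma library 1 (0.0578). In cbp60a Pma leaves CAX1 was at 24.5, 75.8 and 36.7 CPM, lower than wild type in each experiment, and did not pass (-1.40 ± 0.31, adjusted p = 0.230). The adjustment was made within each comparison, and in that of cbp60a 0 of 15161 genes passed, against 1986 in that of chp60g sard1. Summed mesophyll markers in Pma leaves were at 4860 to 13320 CPM in sid2, 7331 to 17330 in chp60g sard1 and 1638 to 2904 in cbp60a, against 3160 to 3620 CPM in wild type. The epidermis sums were at 55.7 to 322, 177 to 504 and 24.5 to 53.4 CPM in the same mutants, against 49.9 to 85.1 CPM in wild type. Guard cell sums were at 119 to 157 CPM in sid2, 63.9 to 80.3 in chp60g sard1 and 115 to 136 in cbp60a, against 108 to 149 in wild type, and phloem sums at 312 to 342, 322 to 386 and 179 to 272, against 210 to 283. Mesophyll and epidermis sums averaged more in sid2 and chp60g sard1, where CAX1 rose, and less in cbp60a, where its values were lower without a call. In the triple mutant they averaged 11960 and 272 CPM, against 3323 and 66.1 in wild type. They averaged 3190 and 32.2 in wrky70 and 3834 and 53.7 in cml46 cml47. CAX1 was called in none of these other mutants, with means of 156 CPM in the triple mutant, 111 in wrky70 and 114.5 in cml46 cml47, against 122.5 in wild type. The part of these markers in the results for CAX1, and for CNGC2 and CNGC4 in sid2, was not tested.

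ACA12, ACA10 and CAX3 were called in no mutant in Pma leaves. ACA10 averaged 143 ± 17.1 CPM in wrky70, 278 ± 36.5 in chp60g sard1 and 294 ± 59.2 in the triple mutant, against 217 ± 24.4 CPM in wild type (SD, n = 3 each). The wrky70 libraries all lay below wild type and those of the other mutants named all lay above it, with adjusted p of 0.168, 0.388 and 0.292. CAX3 was at 142, 178 and 75.6 CPM in triple mutant Pma leaves, against 219, 319 and 293 CPM in wild type (-1.11 ± 0.55, adjusted p = 0.210), and passed in the fit of the Pma libraries alone (-1.13, adjusted p = 0.0114). ACA12 was at 151, 72.7 and 65.4 CPM in chp60g sard1 Pma leaves, against 225, 154 and 140 CPM in wild type (-0.91 ± 0.39, adjusted p = 0.124). It passed in the fit of the Pma libraries alone (0.0412) and without experiment 1 (0.0287), and in the triple mutant (-0.74 ± 0.39, adjusted p = 0.250) without experiment 1 (0.0184). In cml46 cml47, cbp60a and the triple mutant (0.125%, 0.0% and 10.1% of all genes) the edgeR fit of all 42 libraries called none of the 10 genes in Pma leaves. Of the 10, 0, 1 and 2 were under an unadjusted p of 0.05 in these mutants, and DESeq2 called 0 in each.

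**Figure D4:**
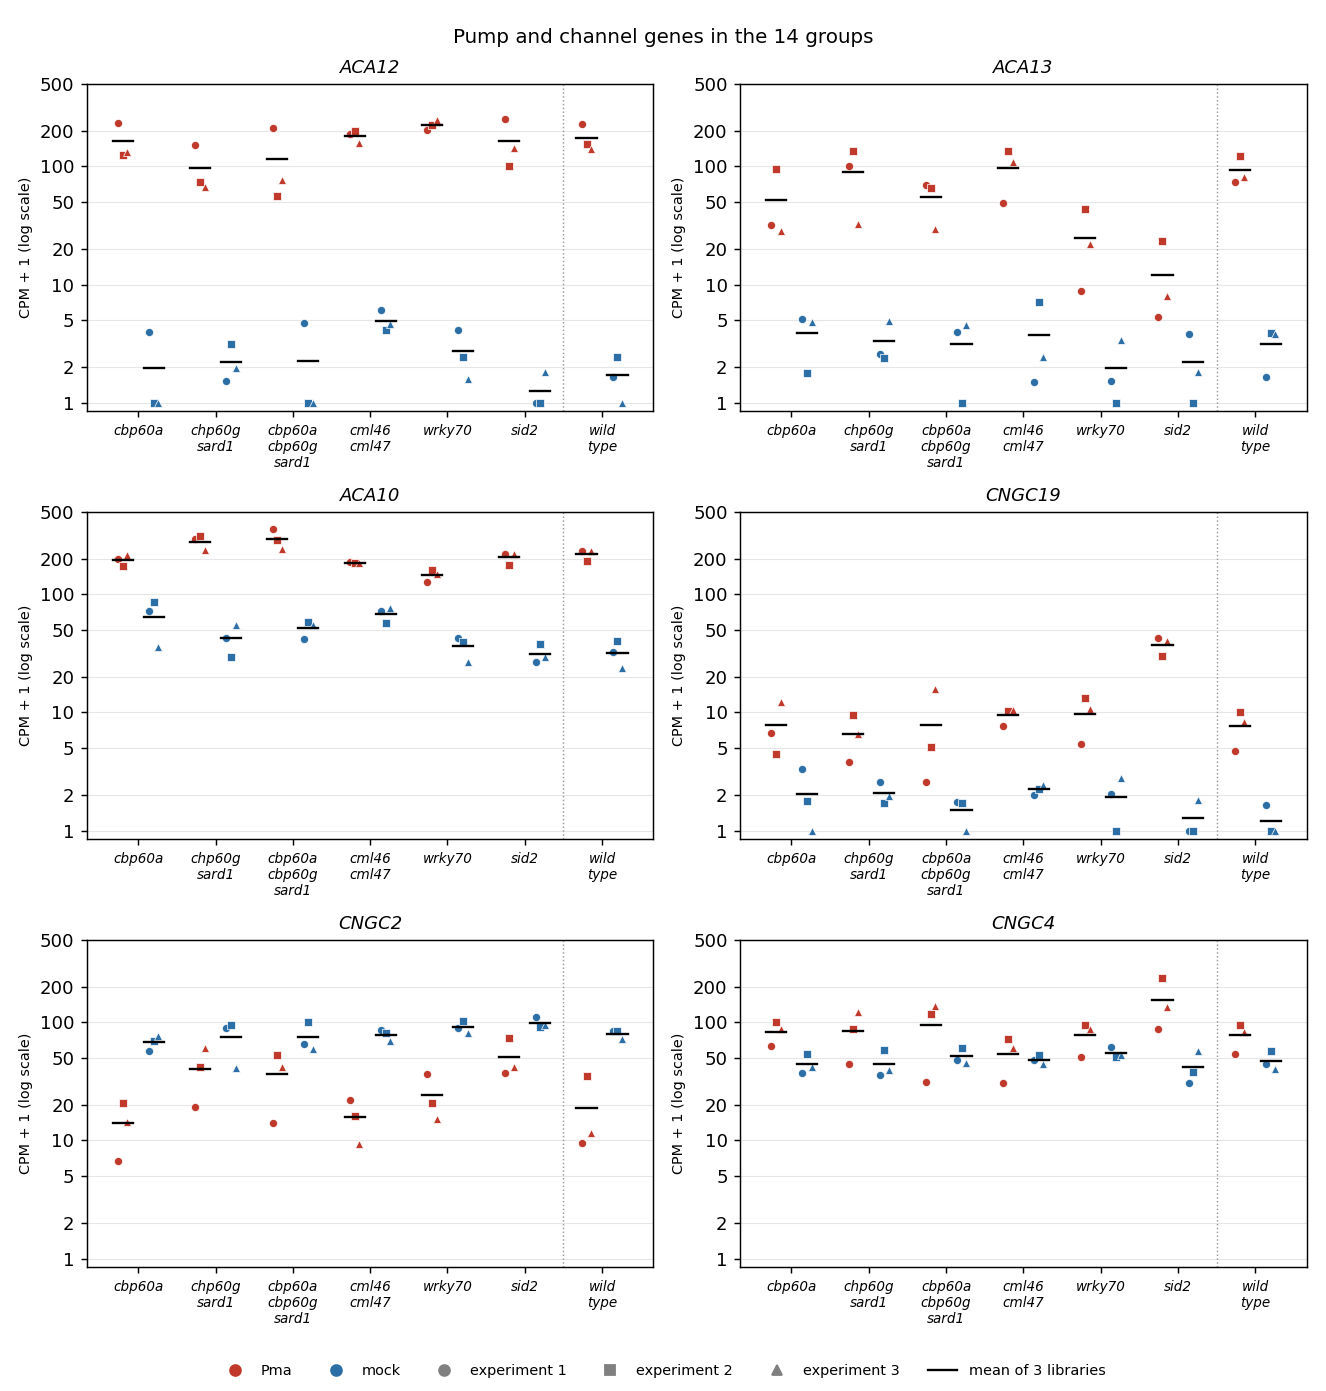
ACA12, ACA13, ACA10, CNGC19, CNGC2 and CNGC4 in the 6 mutants and, right of the dotted line, wild type, as CPM + 1 on a log axis, with Pma (red) left of mock (blue), 1 point per library, marker shape for the experiment and a bar at the mean. In Pma leaves sid2 is lowest for ACA13 (4.29 to 22.1 CPM) and highest for CNGC19 (28.8 to 41.4 CPM).

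The Pma response itself was set against that of wild type for each mutant (the interaction of genotype and treatment). Of 60 values 4 were called, against 2.18% of the values of all genes, 1 each in cml46 cml47 (0.574% of all genes), wrky70 (0.112%), the triple mutant (3.88%) and sid2 (1.73%). CAX3 rose by 0.86 ± 0.54 in cml46 cml47 (not called, 3 of 3 experiments up) and by 2.73 ± 0.58 in wrky70, against 7.46 ± 0.83 in wild type. The difference from the wild type response was -6.60 ± 1.00 in cml46 cml47 (adjusted p = 0.00106) and -4.73 ± 1.02 in wrky70 (adjusted p = 0.0450), with Pma levels in both mutants close to those of wild type and mock levels above it. The cml46 cml47 call ended without experiment 2 (adjusted p = 0.0734) or 3 (0.119), and that of wrky70 in 21 of the alternatives. Its adjusted p was 0.0553, 0.308 and 0.309 without experiment 1, 2 or 3, 0.179 without the block, 0.136 and 0.116 without the wrky70 mock library of experiment 1 or 3, 0.0664 without wrky70 Pma 2, 0.0620 to 0.143 without 1 of the 6 wild type libraries, and at most 0.0550 without 1 of 8 libraries of other mutants. In cbp60a and chp60g sard1 (0.0% and 6.81% of all genes) edgeR called no difference, with 1 and 2 members under an unadjusted p of 0.05, and DESeq2 called 0 and 1.

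CAX1 responded in opposite directions across genotypes. It changed by -1.48 ± 0.32 in cbp60a, -1.80 ± 0.31 in cml46 cml47 and -1.57 ± 0.31 in wrky70, by 0.90 ± 0.30 in sid2 (adjusted p = 0.0105), by 0.65 ± 0.31 in the triple mutant (adjusted p = 0.0723, not called, passing in 20 of the alternatives) and by -0.05 ± 0.30 in chp60g sard1 (adjusted p = 0.893), against -0.87 ± 0.30 in wild type. The response differed from wild type by 1.51 ± 0.43 in the triple mutant (adjusted p = 0.0428) and by 1.76 ± 0.43 in sid2 (adjusted p = 0.0303), in 3 of 3 experiments each. The value for chp60g sard1 was 0.81 ± 0.43 (adjusted p = 0.261). In the triple mutant the mock libraries all lay below wild type (87.8 ± 23.8 against 219 ± 130 CPM), while the Pma libraries overlapped it (156 ± 115 against 122.5 ± 77.6 CPM; SD, n = 3 each). The sid2 call ended in 11 alternatives, with differences of 1.52 to 1.82. There its adjusted p was 0.326 without the block, 0.259 and 0.193 without experiment 2 or 3, 0.0742 to 0.0799 without 1 of the sid2 mock libraries, 0.0911 without sid2 Pma 2, and 0.0802 to 0.0928 without wild type Pma 1 or 3 or wild type mock 1 or 2. The triple mutant call ended in 22, with differences of 1.15 to 1.66. There its adjusted p was 0.290 without the block, 0.307 and 0.347 without experiment 2 or 3, 0.112 and 0.149 without its library Pma 2 or 3, 0.0679 to 0.102 without 1 of its mock libraries, 0.0976 to 0.115 without wild type Pma 1 or 3 or mock 1 or 2, and 0.0507 to 0.0562 without 1 of 10 mock libraries of other mutants. The rise of CAX1 in sid2 also ended without the block (adjusted p = 0.112), without experiment 2 (0.106) or 3 (0.0903) and without the sid2 Pma library of experiment 2 (0.0585).

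Among uncalled differences, CNGC20 responded less than in wild type by 1.28 ± 0.41 in chp60g sard1 (adjusted p = 0.0541, passing in 12 of the alternatives) and by 1.28 ± 0.42 in the triple mutant (adjusted p = 0.0724), and it was lower in 3 of 3 experiments in both. ACA10 in cml46 cml47 was at -1.37 ± 0.35 (adjusted p = 0.0597, passing in 8). Beside ACA13, whose response differed by -2.55 ± 1.44 in sid2 (adjusted p = 0.377), the low mock counts leave wide errors. ACA12 and CNGC19 were given no value here because at least 1 of the 4 groups held 3 counts or fewer. All 6 mutant comparisons share the wild type libraries.

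CAX3 can be read beside PR1, the marker gene of salicylic acid responses. In Pma leaves of sid2 PR1 was at 22.1 to 70.7 CPM while CAX3 was at 224 to 749 CPM. In chp60g sard1 they were at 11.7 to 248 and 152 to 288, and in the triple mutant at 10.6 to 469 and 75.6 to 178 CPM. Wild type Pma leaves had 4471 to 7341 CPM of PR1 with 219 to 319 CPM of CAX3. In Pma leaves of these 3 mutants every PR1 value lay below every wild type Pma value. Each also lay above the 4.70 CPM of the highest wild type mock library. Mock leaves of chp60g sard1 had 8.891 to 48.07 CPM of PR1 and those of the triple mutant 5.038 to 29.02, overlapping their Pma leaves. Those of sid2 had 2.842 to 11.58 CPM, below every sid2 Pma value. The rise of PR1 with Pma was called in sid2 and the triple mutant and not in chp60g sard1. Every CAX3 value in Pma leaves of these 3 mutants lay above every mock value of the same mutant. Each also lay above the 2.61 CPM of the highest wild type mock library. Against wild type Pma leaves, CAX3 overlapped in sid2 and chp60g sard1 and lay below every wild type value in the triple mutant. In mock leaves of cml46 cml47 PR1 was at 319, 1330 and 735 CPM in the order of experiments 1 to 3 in which CAX3 was at 39.8, 297 and 125 CPM. The wrky70 mock library of experiment 3 had 65.3 CPM of CAX3 with 67.1 of PR1, that of experiment 1 had 63.0 with 507, and that of experiment 2 had 7.3 with 8.76, the lowest of the 3 for both genes. In the cbp60a mock library of experiment 1, where PR1 was at 705 CPM, CAX3 was at 8.24 CPM.

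**Figure D5:**
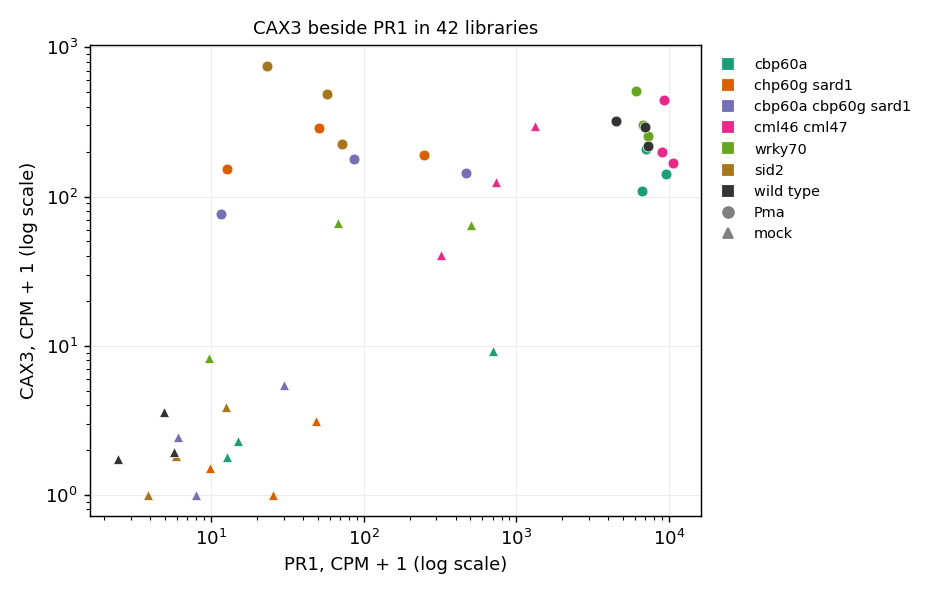
CAX3 (vertical axis) against PR1 (horizontal axis), both as CPM + 1 on log axes, in 42 libraries, with circles for Pma, triangles for mock and a colour per genotype. Pma libraries of sid2, chp60g sard1 and the triple mutant lie at 75.6 to 749 CPM of CAX3 with at most 469 CPM of PR1, and the mock libraries of cml46 cml47 lie above all other mock libraries except 2 of wrky70.

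Over the 14 groups the levels could be put in order, and for most members neighbours in that order overlapped. CAX1 ran from sid2 Pma down to cbp60a Pma (24.5 to 668 CPM over libraries), with overlap between all 13 neighbouring pairs. CAX3 ran from sid2 Pma to chp60g sard1 mock, and the only gap was between triple mutant Pma and wrky70 mock. ACA12 ran from wrky70 Pma to sid2 mock with 2 gaps, and ACA13 from cml46 cml47 Pma to wrky70 mock with 1, between sid2 Pma and cbp60a mock. ACA10 ran from triple mutant Pma to sid2 mock with 3 gaps. CNGC19 had 2 gaps, with sid2 Pma alone at the top and wild type mock at the bottom, and CNGC20 ran from cml46 cml47 Pma to sid2 mock with 1. CNGC2, CNGC4 and ACA8 had none. The same count was not made over all tested genes, so these gaps describe the levels and are not read as a trait of the members.

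Correlations of mean log2 CPM over the 14 groups, which share the split by treatment, are given as a description. Within the set the highest were between ACA10 and ACA12 (0.936) and between ACA10 and ACA13 (0.921), and the lowest between ACA8 and CNGC20 (-0.943) and between ACA13 and CNGC2 (-0.912). The ACA8 means rest on 6 (wild type Pma) to 55 counts (cml46 cml47 mock) a group, and ACA8 levels vary with the experiment in mock leaves and in some Pma groups. CAX1 and CAX3 were at -0.061. Over all tested genes, the 3 most like CAX3 were CHI (0.977), AT5G58570 (0.975) and AMY1, an alpha-amylase (0.968). Those of ACA12 were AT1G63720 (0.998), AT4G21580 (0.997) and GPT2, a plastid glucose 6-phosphate translocator (0.997). ACA10 was most like AT1G06000 (0.992), OPCL1, a ligase of jasmonate synthesis (0.988), and NUDT7, a Nudix hydrolase (0.987), and ACA13 most like B73 (0.981), UGT76E1 (0.979) and VPS35A of the retromer (0.976). CNGC19 was most like APG7 of autophagy (0.968), AT4G32250 and AT5G67245 (both 0.960), and CNGC20 most like the wall-associated kinase WAK1 (0.983), RK3 (0.975) and AT5G10410 (0.974). For CNGC2 they were MEE59 (0.992), AT5G05200 (0.991) and the copper transporter COPT1 (0.989), and for CNGC4 AT5G43570 (0.972), SMP1 (0.969) and HMGB3 (0.959). CAX1 had lower values, with CYP71B13 at 0.870, AT5G65207 at 0.863 and the purine permease PUP10 at 0.829. For ACA8 the genes were AT4G27610 (0.953), AT1G79510 and AT5G47435 (both 0.949), but over the 42 single libraries these correlations were 0.226, -0.029 and 0.302. That of CNGC4 with HMGB3 was 0.493 over the single libraries.

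The rest of the 3 families and other Ca2+ genes give the setting in wild type, where 66.3% of all genes were called. Of the 4 other exchangers 2 were tested and both rose (CAX5 by 2.37 ± 0.33, CAX2 by 0.89 ± 0.28). Of 10 other pumps 8 were tested, 6 rose and 1 fell, among them ACA2 of the endoplasmic reticulum (89.8 CPM in Pma leaves, 9.98 in mock, 3.16 ± 0.33), ACA1 (2.23 ± 0.27), ACA11 of the vacuole (2.04 ± 0.27) and ECA1 (1.59 ± 0.23). The pump that fell, named after its values were seen, was the vacuolar ACA4, the close relative of ACA11, at 4.64 CPM in Pma leaves, against 59.8 CPM in mock leaves (-3.67 ± 0.57, adjusted p = 1.40e-06). Of 16 other CNGC genes 10 were tested, 6 rose and 3 fell (CNGC5, CNGC6 and CNGC9). CNGC13 rose by 3.98 ± 0.43, CNGC3 by 3.64 ± 0.47 and CNGC11 by 1.91 ± 0.39, and CNGC10 had 328 counts in Pma leaves against 1 in mock leaves (ratio 267, 47.6 to 10600). Of 13 tested glutamate receptor-like channels, 5 rose and 3 fell. GLR1.2 had 400 counts in Pma leaves and none in mock leaves, at least 109-fold higher against a floor of 3 counts over the group, and GLR2.5 had 159 and none (at least 43.2-fold). All 6 tested members of the other Ca2+-permeable channels fell, with MCA1, a mechanosensitive channel, at -4.53 ± 0.35, the osmosensor OSCA1.1 at -3.63 ± 0.48 and the vacuolar channel TPC1 at -1.69 ± 0.23. Of 7 tested immune Ca2+-dependent kinases 5 rose, led by CPK6 (2.37 ± 0.25), CPK4 (2.73 ± 0.31) and CPK5 (1.61 ± 0.23).

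Related genes also differed between genotypes. In cml46 cml47 mock leaves, where 3.83% of all genes were higher, 3 of 8 other pumps were higher than in wild type (ACA2 by 1.31 ± 0.33, ACA1 by 1.13 ± 0.27, ACA11 by 1.08 ± 0.27) and 4 of 10 other CNGC genes were (CNGC3 by 2.11 ± 0.46, CNGC13 by 1.85 ± 0.46, CNGC11 by 1.35 ± 0.38, and CNGC10 with 29 counts against 1). CNGC3 (2.35 ± 0.46) and CNGC11 (2.06 ± 0.39) were also higher in chp60g sard1 mock leaves, where 0.462% of all genes were called. In sid2 Pma leaves, CNGC11 (15.8 CPM, against 80.8 in wild type, -2.31 ± 0.39) and CNGC12 (29.7 against 79.3 CPM, -1.43 ± 0.29), which lie beside each other and act in immunity, were lower, as were ACA2 (-0.90 ± 0.29) and ECA3 (-1.29 ± 0.29). CNGC12 was lower in chp60g sard1 and the triple mutant as well (-1.39 ± 0.29 and -1.46 ± 0.29). In sid2 Pma leaves 2 of the 10 other tested CNGC genes were thus lower and 0 higher, beside 5.62% and 8.89% of all genes.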

How the data were processed

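Leaf RNA was measured by Smart-3SEQ, a method that reads a tag from the 3' end of each transcript. Per the submitters' processing notes, the reads were handled with bcl2fastq 2.17.1.14 and STAR 2.4.2a on TAIR10. Per the labels' protocols, the start of each read (8 bases, with a molecular tag of 5) was trimmed. The authors deposited raw counts per locus; the counting tool, the strand setting and the use of the molecular tags are not given in the sources used here. From these counts edgeR 4.0.16 (R 4.3.3) gave TMM factors, CPM and 1 quasi-likelihood fit of 14 groups and the experiment, after filterByExpr (minimum count 10, total 15), with 25 contrasts and Benjamini-Hochberg adjustment over 15161 genes. All adjusted p-values come from this fit unless DESeq2 1.42.0 is named. The SE was taken as the size of the log2 change over the root of F. Where a group held 3 counts or fewer in all, a ratio with its exact 95% interval stands in for the fitted fold (counting error only). The fit was tested on simulated data for the comparison of sid2 with wild type in mock leaves alone, with the same spread for every gene. That run did not cover the Pma responses, the interaction tests or genes near absent from mock leaves.

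The replicate number is the experiment in the labels. Deviations from group means correlated at 0.372, 0.351 and 0.133 within experiments 1, 2 and 3 and at -0.142 between experiments. Centring each group on its own mean makes the last value negative when the others are positive, so it is not a separate result. Alternatives were RLE factors, no filter on low counts, no block, DESeq2, fits of 1 treatment, and each library or experiment left out. They largely share the same libraries, so a count of alternatives is not a count of separate tests. The members and lists were chosen with earlier results of these data known. All 10 members are described, at most 4 genes a list are named for wild type, by lowest adjusted p, and genes called in a mutant may also be named. For each member the 3 genes of highest correlation are named. Sequences are from RefSeq's TAIR10.1, matched by locus for all 10 members.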

Additional observations from a re-analysis of the deposited data

Results flagged for a closer look

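The Pma response of 2 exchanger genes differed between a mutant and wild type by the interaction test of edgeR (Benjamini-Hochberg adjusted p under 0.05 over all tested genes), each in 3 of 3 experiments. For CAX3 the difference (mutant response minus wild type response, log2) was -6.6 in cml46 cml47 (adjusted p = 0.00106) and -4.73 in wrky70 (adjusted p = 0.0450). CAX3 in mock leaves averaged 154 ± 131 CPM in cml46 cml47 and 45.2 ± 32.9 CPM in wrky70, against 1.43 ± 1.03 CPM in wild type (SD, n = 3 each). For CAX1 the difference was 1.51 in the triple mutant (adjusted p = 0.0428) and 1.76 in sid2 (adjusted p = 0.0303). CAX1 averaged 399 ± 243 CPM in Pma leaves and 202 ± 79.9 CPM in mock leaves of sid2, and 156 ± 115 and 87.8 ± 23.8 CPM in the triple mutant, against 122.5 ± 77.6 and 219 ± 130 CPM in wild type (SD, n = 3 each).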

How the results depend on the processing

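Of 69 called member values, 43 were called under every alternative run, and of 3390 values under alternatives 3206 kept their side of the threshold, 184 lost it and 0 changed sign. Of the Pma responses of 70 gene and genotype pairs, 55 were called. The number was 54 with RLE factors, 57 without the filter on low counts and 53 with DESeq2, and 53 to 57 with 1 library or 43 to 55 with 1 experiment left out. In mock leaves 3 mutant values were called. DESeq2 called 6, a fit of the mock libraries alone 6, and leaving out 1 library gave 1 to 5 and 1 experiment 1 to 2. In Pma leaves 7 were called, 3 to 9 without 1 library and 3 to 10 without 1 experiment. Of the response differences 4 were called, 1 to 6 without 1 library and 0 to 3 without 1 experiment. The cause of these shifts was not tested. Without the replicate block, which pairs libraries of 1 experiment, 46 Pma responses, 3 values in Pma leaves and 1 response difference were called. The median of all genes in the wild type Pma response was -0.02 and lay between -0.04 and 0.13 with 1 library left out. It moved by over 0.1 for 18 of the libraries left out, all of them mock, and at most by 0.151. The part of that shift in the calls gained or lost was not tested. Depth limits CAX3, ACA12, ACA13 and CNGC19 in mock leaves, where a group held few counts (1 to 8 in wild type). It also limits ACA8 under both treatments, with 6 counts over the wild type Pma libraries and 28 over the mock libraries.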
